A study of Mus musculus with 4 samples.

Results

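The genes described here are 35 genes of the amino acid response, a set that the transcription factor ATF4 is known to induce. They were taken by gene symbol from a table of 54532 genes, and each of the 35 symbols was found once. The set holds 5 enzymes of serine, glycine and folate metabolism, 3 enzymes that make asparagine and proline, 8 amino acid transporters, 8 regulators and stress effectors, and 11 cytosolic tRNA synthetases. RNA was sequenced from mouse cells labelled as primary lung fibroblasts. By genotype, 2 libraries are labelled Calu-WT (here WT) and 2 Calu-KO, and no other treatment is given. Calu encodes calumenin, which binds calcium in the endoplasmic reticulum. The titles of the targeted libraries carry the letters KD. The sources used here do not give how the gene was targeted, the strain and age of the animals, or whether the libraries of 1 group are from separate mice or cultures. P-values therefore measure only the spread between these libraries, which may be technical.

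ATF4 is made when kinases that sense stress phosphorylate the initiation factor eIF2. Most translation then slows, while that of Atf4 mRNA goes up. One of these kinases, GCN2, senses uncharged tRNA, and another, PERK, senses unfolded protein in the endoplasmic reticulum. ATF4 pairs with other bZIP factors on the C/EBP-ATF response element (CARE), and through it raises genes that import amino acids, make them and load them onto tRNA. In fibroblasts, which secrete much collagen, glycine and proline made by these enzymes are building blocks of the matrix.

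Calu itself stood at 178 and 177 FPKM (fragments per kilobase of gene, scaled to the size of the library) in WT replicates 1 and 2, and at 14.9 and 10.9 FPKM in Calu-KO replicates 1 and 2. Recovered reads came to between 15635448 and 16510048 per library. Mitochondrial genes took 4.0% of reads in Calu-KO replicate 2, against 2.43% to 2.53% in the other 3 libraries. Of 9 fibroblast markers, 6 were above 1 FPKM, among them Vim, Col1a1 and Pdgfra, whereas Dcn and Lum had no reads. Of all markers, 5 passed the test by limma at an adjusted p under 0.05. Over all tested genes, 0.942% passed as higher and 1.83% as lower. Col3a1 (fibroblast list), Krt8 (epithelial list), Lyz2 (leukocyte list) and Des were lower in Calu-KO, and Mcam was 6.04-fold higher. Des and Mcam are both from the list of 6 smooth muscle and pericyte markers. Of that list, 3 were under 1 FPKM in every library, and Cspg4 had a log2 change of 0.05. Of 8 epithelial markers, 6 were under 1 FPKM in every library, with no reads of Epcam or Sftpc. The part of these 5 shifts in the results below was not tested. Of 6 transcription factors of lung mesenchyme, 5 were under 1 FPKM in every library, so the lung origin is taken from the labels alone. The summed level of 8 leukocyte markers was 11.3 and 12.4 FPKM in WT and 4.37 and 4.12 FPKM in Calu-KO, with Ptprc, Adgre1 and Itgam at 0 or 1 read. All 5 endothelial markers were under 1 FPKM. Of 4 mesothelial markers, 3 were under 1 FPKM in every library. The fourth, Msln, stood at 33.0 and 30.4 FPKM in WT and at 25.2 and 22.1 FPKM in Calu-KO, and was not called.

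The CARE is the sequence through which ATF4 is known to act, so promoters of the genes were searched for its core letters, TGATGNAA (N is any base), on both strands. RefSeq promoters (GRCm38.p6, the assembly also called mm10) were at hand for 29 of the 35 genes, as windows of 250 bases before to 50 after the start site. The letters were found in 11 of the 29 (37.9%), against 4.51% of 27025 genes with such windows. The stretches below run up to the start site at most and show the letters in capitals, with TTNCATCA being the same letters on the other strand.
Asns (chr6:7693210-7693252, minus strand): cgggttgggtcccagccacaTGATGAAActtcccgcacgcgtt
Pycr1 (chr11:120643824-120643871, minus strand): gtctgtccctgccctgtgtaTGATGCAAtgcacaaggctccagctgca
Slc7a11 (chr3:50443652-50443699, minus strand): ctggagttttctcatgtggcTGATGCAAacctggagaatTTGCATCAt
Chac1 (chr2:119351029-119351076, plus strand): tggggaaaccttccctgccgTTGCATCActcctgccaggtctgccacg
Nupr1 (chr7:126625553-126625600, minus strand): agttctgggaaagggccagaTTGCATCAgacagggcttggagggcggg
Aars (chr8:111033710-111033757, plus strand): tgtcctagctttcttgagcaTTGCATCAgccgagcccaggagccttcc
Gars (chr6:55037951-55037998, plus strand): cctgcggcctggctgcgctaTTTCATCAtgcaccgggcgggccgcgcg
Tars (chr15:11399659-11399693, minus strand): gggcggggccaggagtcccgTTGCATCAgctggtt
Slc7a11 holds the letters on each strand. In Slc1a4, Yars and Iars they reach past or lie after the start site and are not printed. A match describes the letters in this window and is not evidence of binding. Of the 11 genes with a match, 6 had a positive and 5 a negative log2 change in Calu-KO (median 0.02), and of the 17 tested genes with a promoter and no match, 8 had a positive and 9 a negative one (median -0.03).

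Most of the 35 genes were abundant in these cells. Stc2, a secreted glycoprotein hormone gene, had no reads in any library. The other 34 had a mean of at least 1 FPKM and were tested, and their median level, 46.8 FPKM, compares with 8.47 FPKM over all 11885 genes tested. Their mean levels ran from 2.99 FPKM for Slc7a11 to 240.1 FPKM for Phgdh. In WT the summed FPKM of the 11 synthetases was 896 and 906, and that of the 5 serine, glycine and folate enzymes was 619 in each library. Per gene the order was the other way, with a median level over the 4 libraries of 60.6 FPKM for the synthetases and 115.9 FPKM for these enzymes.

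**Figure D1:**
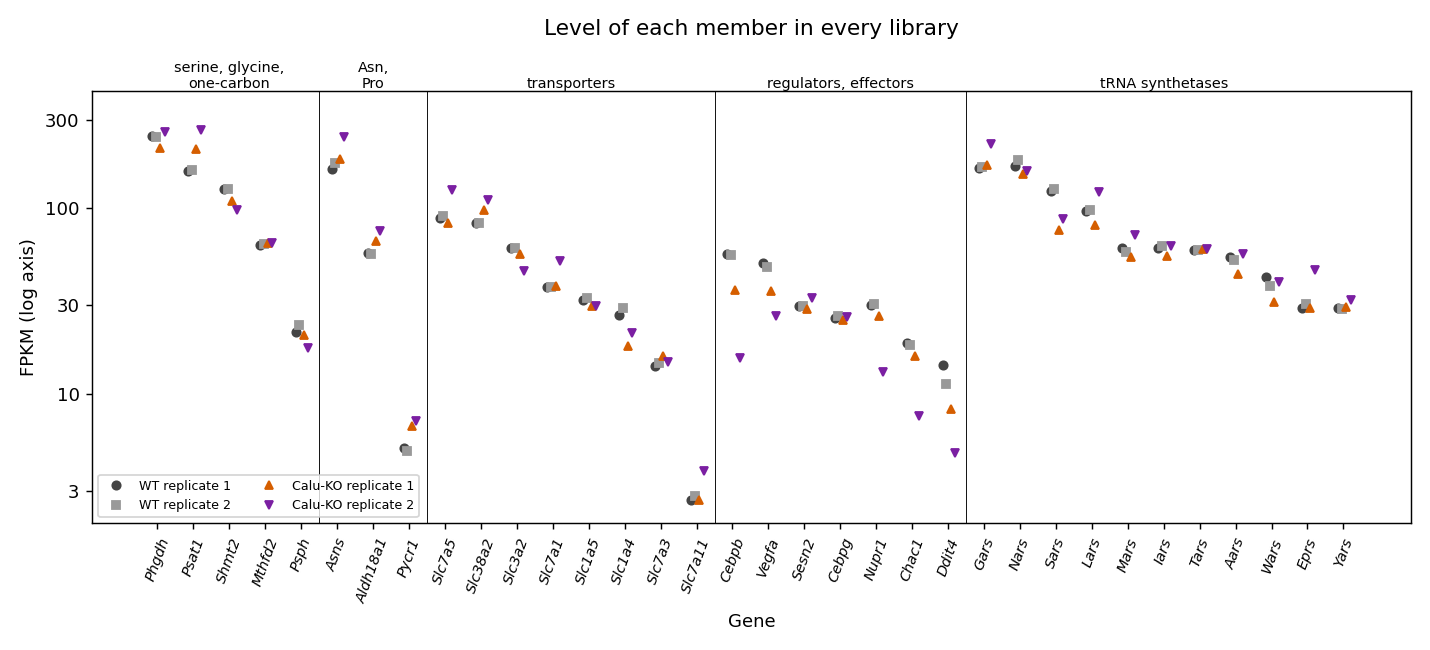
FPKM on a log axis of the 34 members with reads, by role and by mean level, with 1 point per library. The WT points nearly coincide, and the widest gaps between the Calu-KO libraries are among the regulators and effectors, such as Cebpb at 36.3 and 15.7 FPKM.

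Setting Calu-KO against WT asks whether the levels of these genes differ when calumenin is reduced. None of the 34 passed the test (limma, adjusted p under 0.05), in a comparison where 0.942% of all tested genes were called higher and 1.83% lower. At an unadjusted p under 0.05, 4 members were higher and 6 lower, against 12.0% and 12.7% of all genes. Both Calu-KO libraries lay above both WT libraries for 11 members (32.0% of all genes) and below for 12 (29.7% of all genes), and the groups overlapped for 11. The median log2 change of the 34 was -0.01, and that of all tested genes 0.01. For 29 of them the 95% interval of the log2 change lay within -1 and 1, so a doubling or halving was outside it. The other 5 were Cebpb, Ddit4, Chac1, Nupr1 and Vegfa, all regulators or effectors. In these bulk samples, fewer cells of a type and less RNA per cell cannot be told apart.

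The call of none rested on which libraries entered, and calls over all genes shifted as well. Without Calu-KO replicate 1 the median log2 change of the members was 0.03, and without Calu-KO replicate 2 it was -0.11. Those fits take their spread from the WT pair alone, whose median difference over the members was 0.03 on the log2 scale, against 0.28 between the Calu-KO libraries. Without Calu-KO replicate 1 and without Calu-KO replicate 2, log2 changes were 0.72 and 0.38 for Psat1 and -0.52 and -0.71 for Sars. They were -0.37 and -0.58 for Slc1a4, -1.78 and -0.62 for Cebpb, and -0.89 and -0.46 for Vegfa. For Lars they were 0.33 and -0.26. Both fits share the WT pair, so they are not independent. In the voom fit to recovered reads, 1 member, Sars, was called, as lower (3.95% of all genes).

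**Figure D2:**
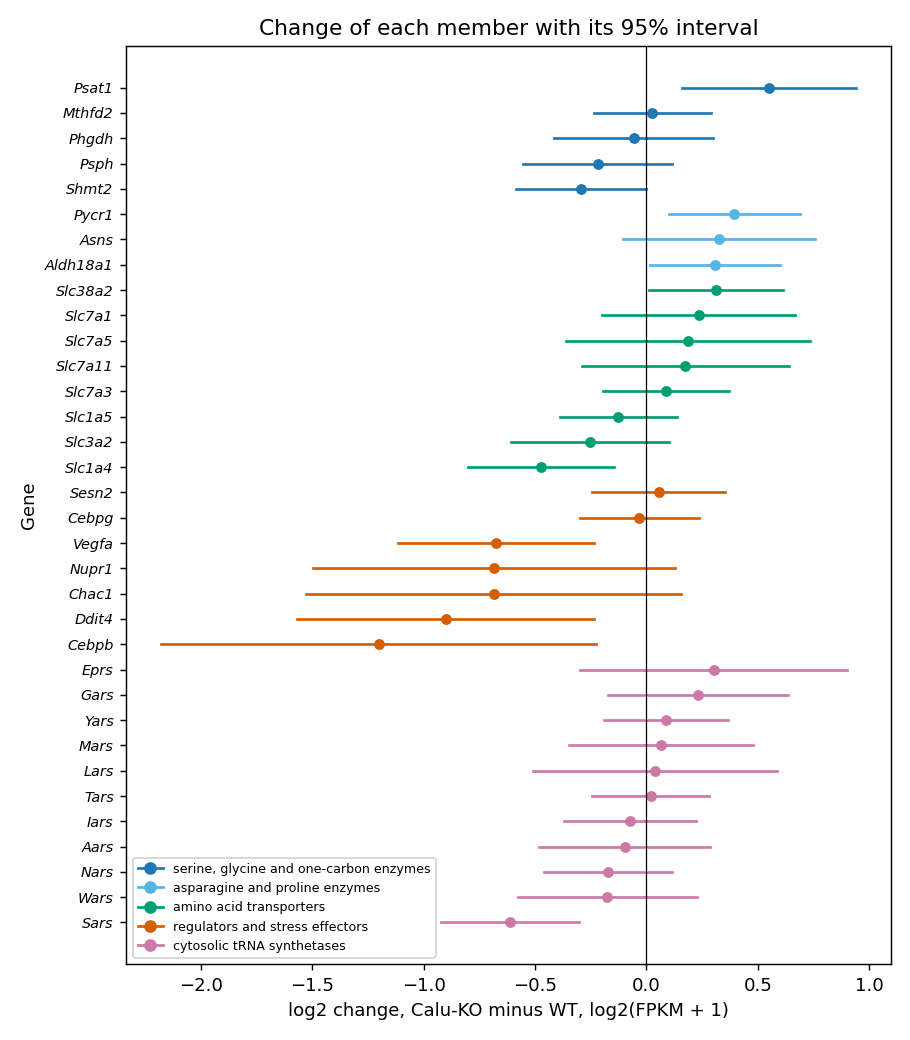
Log2 change (Calu-KO minus WT, on the log2(FPKM + 1) scale) of the 34 tested members, with bars for the 95% interval from limma and colours for role. The 5 intervals that reach below -1 belong to regulators and effectors, while those of the 11 synthetases lie within -1 and 1.

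The serine pathway starts with Phgdh, which takes phosphoglycerate out of glycolysis, followed by the aminotransferase Psat1 and the phosphatase Psph. Psat1 stood at 159 and 161 FPKM in WT and at 208 and 264 FPKM in Calu-KO replicates 1 and 2. Both Calu-KO values lay above both WT values, and the ratio of means was 1.48 (log2 change 0.55 ± 0.15 SE, adjusted p = 0.126). Its neighbours in the pathway did not share that difference. Phgdh stood at 246 and 243 FPKM in WT and 213 and 258 FPKM in Calu-KO, and the groups overlapped (log2 change -0.06, 95% interval -0.42 to 0.30). Psph stood at 21.5 and 23.6 against 20.8 and 17.7 FPKM (log2 change -0.22 ± 0.13). Reads of Psph and of Cct6a, which overlaps it on the opposite strand at 103 to 140.1 FPKM, cannot be told apart without a stated strand setting.

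In mitochondria Shmt2 splits serine into glycine and a folate-bound carbon unit, which Mthfd2 oxidises. Mthfd2 was the steadiest of these enzymes, at 63.7 and 64.6 FPKM in WT and 65.2 and 65.5 FPKM in Calu-KO (log2 change 0.03, interval -0.24 to 0.29). Shmt2 stood at 128 in each WT library and at 109 and 98.7 FPKM in Calu-KO (log2 change -0.29 ± 0.11, adjusted p = 0.201). The gene Ndufa4l2, on the opposite strand, overlaps Shmt2 and went from 32.2 and 27.5 FPKM to 6.59 and 1.75 FPKM, and its part in the Shmt2 value was not tested. Among 16 other tested genes of folate, serine and proline metabolism none was called, with a median of -0.07.

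The asparagine and proline enzymes all stood higher in both Calu-KO libraries than in either WT library (32.0% of all genes did), with no call. Asns, asparagine synthetase, was at 163 and 175 FPKM in WT and at 185 and 243 FPKM in Calu-KO, a ratio of means of 1.27 (log2 change 0.33 ± 0.17, adjusted p = 0.287). Aldh18a1, which reduces glutamate on the way to proline, was at 57.5 and 56.9 FPKM in WT and at 67.2 and 75.2 FPKM in Calu-KO (log2 change 0.31 ± 0.11, adjusted p = 0.188). Pycr1, which carries out the last step to proline in mitochondria, was far less abundant, at 5.11 and 4.93 FPKM in WT and 6.70 and 7.11 FPKM in Calu-KO (log2 change 0.39 ± 0.11, adjusted p = 0.135). For all 3 genes the WT and Calu-KO values were apart. The isoenzyme gene Pycrl had a log2 change of -0.52, with Calu-KO below WT, and was not called.

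Among the transporters, log2 changes stayed between -0.47 and 0.31, with 5 positive and 3 negative. Slc7a5, the large neutral amino acid carrier that brings in leucine, was the most abundant, at 88.5 and 90.5 FPKM in WT and 83.04 and 126 FPKM in Calu-KO, so that the Calu-KO libraries lay on either side of WT. Its heavy chain partner Slc3a2, which Slc7a11 also uses, stood at 61.4 and 60.9 FPKM in WT and 56.7 and 46.1 FPKM in Calu-KO (log2 change -0.25 ± 0.14, adjusted p = 0.307). Slc7a11, the cystine and glutamate exchanger, was low throughout, at 2.66 and 2.81 FPKM in WT and 2.66 and 3.84 FPKM in Calu-KO.

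The neutral amino acid transporter Slc1a4 had the most negative log2 change of the transporters (-0.47 ± 0.13, adjusted p = 0.120). It stood at 26.6 and 28.9 FPKM in WT and at 18.2 and 21.3 FPKM in Calu-KO, with the groups apart. Its relative Slc1a5, a glutamine transporter, was at 32.1 and 33.02 against 29.7 and 29.8 FPKM (log2 change -0.13, interval -0.39 to 0.14). Slc38a2, which takes up small neutral amino acids and is itself induced by their lack, was at 83.4 and 84.0 FPKM in WT and 97.9 and 111 FPKM in Calu-KO (log2 change 0.31 ± 0.12, adjusted p = 0.192). The cationic amino acid transporters Slc7a1 and Slc7a3 had log2 changes of 0.23 ± 0.17 and 0.09 ± 0.11. None of 11 other tested amino acid transporters was called (median 0.12). The lowest was the lysosomal transporter gene Slc38a7, at 10.5 FPKM in each WT library and 6.22 and 6.77 FPKM in Calu-KO (log2 change -0.62 ± 0.11, adjusted p = 0.0653).

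The regulators and effectors were the role group with the lowest values. Of 7 tested, 5 lay below WT in both Calu-KO libraries and none above (the share of all genes below WT was 29.7%), and the median log2 change was -0.68. Their summed level was 226 and 221 FPKM in WT, 176 FPKM in Calu-KO replicate 1 and 126 FPKM in Calu-KO replicate 2. None was called, and the Calu-KO libraries differed from each other by a median of 0.68 on the log2 scale.

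Cebpb, a bZIP factor that can pair with ATF4, stood at 56.5 and 56.2 FPKM in WT and at 36.3 and 15.7 FPKM in Calu-KO. Both Calu-KO values were below WT, but the second lay far under the first (log2 change -1.20 ± 0.38, interval -2.18 to -0.23, adjusted p = 0.151). Its relative Cebpg, also a partner of ATF4, was at 25.8 and 26.4 FPKM in WT and 24.9 and 26.1 FPKM in Calu-KO (log2 change -0.03, interval -0.30 to 0.24). The gene Tmem189 overlaps Cebpb on the opposite strand, at 13.9 and 14.7 FPKM in WT and 10.9 and 8.32 FPKM in Calu-KO. Its part in the Cebpb value was not tested.

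Ddit4, which encodes the mTORC1 inhibitor REDD1, stood at 14.3 and 11.3 FPKM in WT and at 8.29 and 4.80 FPKM in Calu-KO (log2 change -0.90 ± 0.26, adjusted p = 0.134). Vegfa, the vascular growth factor gene, stood at 50.6 and 48.4 FPKM in WT and at 35.7 and 26.2 FPKM in Calu-KO (log2 change -0.68 ± 0.17, adjusted p = 0.109). Both genes are also known to answer to hypoxia. Chac1, an enzyme that breaks down glutathione, stood at 18.7 and 18.3 FPKM in WT, 16.1 FPKM in Calu-KO replicate 1 and 7.61 FPKM in Calu-KO replicate 2 (log2 change -0.69 ± 0.33, adjusted p = 0.261). Nupr1, a small stress-induced chromatin-associated protein gene, followed the same order, at 30.2 and 30.7 FPKM in WT and 26.2 and 13.1 FPKM in Calu-KO (log2 change -0.68 ± 0.32, adjusted p = 0.252). For Chac1 and Nupr1, Calu-KO replicate 1 was 0.19 and 0.21 below the WT mean on the log2 scale, and Calu-KO replicate 2 was 1.18 and 1.16 below. That library also had the highest share of mitochondrial reads. Over 11875 genes, the log2 change between the groups correlated negatively with the GC content of the gene's longest transcript (Spearman's rho -0.31). In the fit with GC and length trends removed, no member was called, and the log2 changes of Chac1 and Nupr1 were still negative. Beyond that fit, the part of GC content or of the mitochondrial share in these values was not tested. Sesn2, a leucine sensor that restrains mTORC1, was level at 29.6 FPKM in each WT library and 28.8 and 32.9 FPKM in Calu-KO (log2 change 0.05, interval -0.25 to 0.35).

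**Figure D3:**
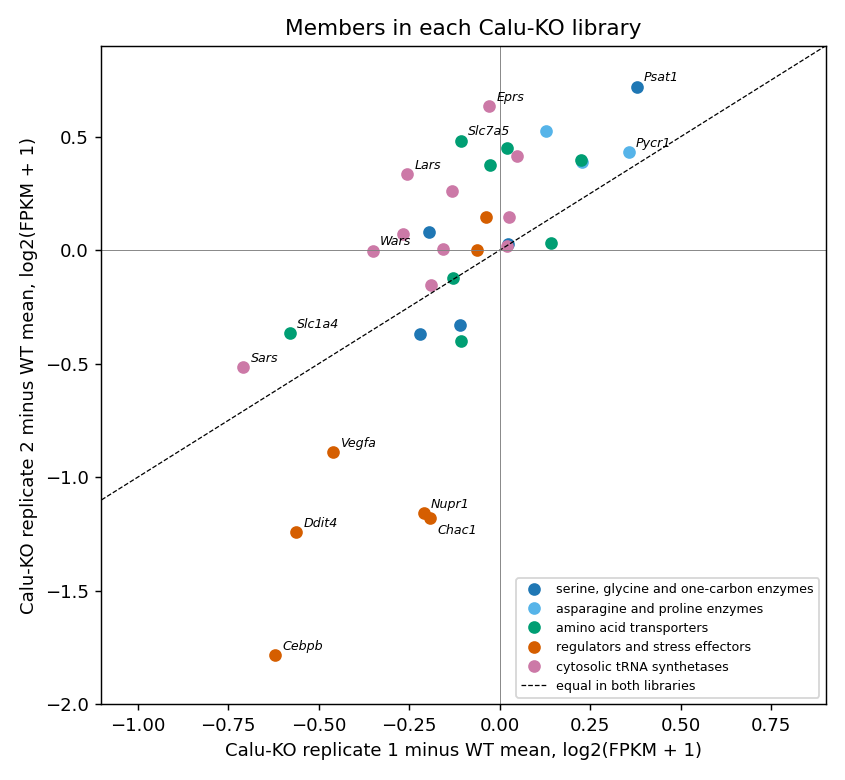
Log2(FPKM + 1) of each member in Calu-KO replicate 1 (horizontal) and replicate 2 (vertical), each minus the WT mean, with the dashed line where both are equal. Cebpb, Ddit4, Vegfa, Nupr1 and Chac1 lie below the line, farther from WT in replicate 2, while all 11 synthetases lie on or above it.

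The cytosolic tRNA synthetases, which load amino acids onto tRNA, were spread around no difference. Of 11, 3 lay above WT in both Calu-KO libraries (32.0% of all genes), 2 below (29.7% of all genes), and 6 overlapped. The median log2 change was 0.02, and all 11 intervals were within -1 and 1. After rescaling to total reads, which shifts all genes down, the log2 changes of Tars, Yars, Lars and Mars were below 0. Gars, the glycine enzyme, was the most abundant, at 166 and 167 FPKM in WT and 172 and 222 FPKM in Calu-KO (log2 change 0.23 ± 0.16, adjusted p = 0.394). Tars, the threonine enzyme, differed least, at 59.6 and 59.8 FPKM in WT and 60.5 and 60.6 FPKM in Calu-KO (log2 change 0.02, interval -0.24 to 0.28).

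Sars, which charges serine, had the most negative log2 change of the synthetases. It was at 125 and 127 FPKM in WT and at 76.5 and 87.6 FPKM in Calu-KO, a ratio of means of 0.653. The Calu-KO libraries were close to each other and both well below WT (log2 change -0.61 ± 0.12, interval -0.92 to -0.30). It did not pass, though its adjusted p, 0.0757, was the lowest of the 34 members. It passed in 3 of 11 alternatives, with adjusted p-values from 0.00403 to 0.607 over them, and its log2 change ran from -0.72 to -0.52.

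The remaining 8 synthetases had log2 changes from -0.18 for Wars (tryptophan) to 0.30 for Eprs, the fused enzyme for glutamate and proline. Eprs stood at 29.0 and 30.5 FPKM in WT, 29.1 FPKM in Calu-KO replicate 1 and 46.7 FPKM in Calu-KO replicate 2. For Lars (leucine) the Calu-KO libraries lay on either side of WT. It stood at 97.0 and 98.2 FPKM in WT, 81.6 FPKM in Calu-KO replicate 1 and 123 FPKM in Calu-KO replicate 2 (log2 change 0.04, interval -0.51 to 0.59). Nars (asparagine) was at 170.4 and 183 FPKM in WT and 154 and 159 FPKM in Calu-KO (log2 change -0.17 ± 0.11). Mars (methionine) was at 61.5 and 58.5 against 54.7 and 72.0 FPKM, and Ddit3, described below, overlaps it on the opposite strand. Aars (alanine), Iars (isoleucine) and Yars (tyrosine) had log2 changes of -0.10, -0.07 and 0.09. The gene C77080 overlaps Yars on the opposite strand, at 12.4 and 10.9 FPKM in WT and 6.11 and 7.39 FPKM in Calu-KO. In FPKM, all 11 synthetases were higher in Calu-KO replicate 2 than in replicate 1, as were 25 of the 34 members (73.5%) and 52.5% of all tested genes. Recovered reads of Nars, Sars, Yars, Tars and Iars were fewer in replicate 2, and those of the other synthetases were more. The read totals of replicates 1 and 2 were 16510048 and 16038560. The summed level of the synthetases was 790.1 FPKM in Calu-KO replicate 1 and 962 FPKM in replicate 2, on either side of WT. Both comparisons depend on the FPKM scaling. Calu-KO replicate 2 had an implied library size of 1.46e+07, below its 16038560 recovered reads. In each other library the implied size was above the read total.

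The synthetases outside the set gave no call either. Of 12 genes for the remaining cytosolic synthetases and the scaffold that binds them, 3 lay above WT and 5 below, with a median of -0.03 (over all genes 32.0% lay above and 29.7% below). Farsb, a subunit of the phenylalanine enzyme, was lowest, at 32.8 and 31.4 FPKM in WT and 18.3 and 24.7 FPKM in Calu-KO (log2 change -0.57 ± 0.17, adjusted p = 0.135). Among 17 mitochondrial synthetases 7 lay above and 4 below (median 0.12), against the same shares of all genes. Yars2 was lowest at -0.89 ± 0.22 (adjusted p = 0.102), from 8.28 and 7.99 FPKM in WT to 5.03 and 3.02 FPKM in Calu-KO.

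The 4 lists around the members that held no call by limma, namely those of folate, serine and proline genes, of transporters and of both kinds of synthetase, held 3 higher and 6 lower genes at an unadjusted p under 0.05 (12.0% and 12.7% of all genes). The voom fit called none of their genes higher and 3 lower (3.04% and 3.95% of all genes).

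Upstream of these genes, Atf4 mRNA stood at 282 and 295 FPKM in WT and at 251 and 169 FPKM in Calu-KO. Both Calu-KO values were below WT, replicate 2 by more (log2 change -0.48 ± 0.21, interval -1.02 to 0.06, adjusted p = 0.233). ATF4 is controlled mainly in translation, which mRNA levels do not measure. None of the 4 kinases that phosphorylate eIF2 was called. Both Calu-KO values lay below both WT values for Eif2ak3 and above them for the others (29.7% and 32.0% of all genes). Eif2ak3, which encodes PERK, was at 7.42 and 7.33 against 6.96 and 6.73 FPKM (log2 change -0.09 ± 0.11), and Eif2ak4, which encodes GCN2, at 5.21 and 5.28 against 5.92 and 5.79 FPKM (0.13 ± 0.11). The log2 changes of Eif2ak1, the haem-regulated kinase, and Eif2ak2, the kinase of double-stranded RNA, were 0.28 ± 0.14 and 0.27 ± 0.16.

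Of 18 genes of this upstream list 1 was called, as lower (1.83% of all genes), and the median was 0.02. This was Ppp1r15a, which encodes GADD34, the phosphatase subunit that ATF4 signalling induces to restore eIF2. It fell from 14.7 and 16.1 FPKM in WT to 5.76 and 4.50 FPKM in Calu-KO (log2 change -1.43 ± 0.15, adjusted p = 0.0266). Its constitutive counterpart Ppp1r15b was at 38.2 and 39.2 FPKM in WT and 49.3 and 58.2 FPKM in Calu-KO (log2 change 0.46 ± 0.13, adjusted p = 0.125).

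A further list held 25 other known ATF4 targets, among them stress factors, oxidases and a few amino acid enzymes. Of 22 tested, 3 were called lower (1.83% of all genes) and none higher, 16 lay below WT in both Calu-KO libraries (29.7% of all genes) and 3 above (32.0% of all genes), and the median was -0.45, against -0.01 for the members. The voom fit to recovered reads called 7 of them lower (3.95% of all genes). This list, like the others, was chosen with earlier results of these data known, and whether the lists differ was not tested. Vldlr, a lipoprotein receptor gene, fell from 7.73 and 7.82 FPKM to 0.499 and 0.850 FPKM (log2 change -2.40 ± 0.16, adjusted p = 0.0143). Its second RefSeq promoter holds the CARE letters, as does that of Got1, an aspartate aminotransferase that was not called (log2 change -0.47 ± 0.10, adjusted p = 0.0888). Both windows are shown for comparison with those of the members. Promoters of the other genes in this list were not examined, so these matches give no share for the list.
Vldlr (chr19:27216800-27216847, plus strand): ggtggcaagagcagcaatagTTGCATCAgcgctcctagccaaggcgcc
Got1 (chr19:43524680-43524727, minus strand): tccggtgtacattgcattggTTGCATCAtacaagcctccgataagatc
Ero1l, an oxidase of the endoplasmic reticulum that drives disulfide formation, fell from 79.02 and 78.3 FPKM to 35.8 and 38.7 FPKM (log2 change -1.06 ± 0.11, adjusted p = 0.0266). Sqstm1, the autophagy receptor p62, fell from 178 and 173 FPKM to 108 and 105 FPKM (log2 change -0.72 ± 0.11, adjusted p = 0.0451).

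Several further targets in this list had negative values short of the threshold. Trib3, a pseudokinase that feeds back on ATF4, stood at 142 and 135 FPKM in WT and 74.8 and 54.2 FPKM in Calu-KO (log2 change -1.11 ± 0.18, adjusted p = 0.0534). Ddit3, the factor CHOP, stood at 64.2 and 66.7 FPKM in WT and 34.1 and 19.4 FPKM in Calu-KO (log2 change -1.31 ± 0.27, adjusted p = 0.0796). Cth, which makes cysteine from cystathionine, stood at 26.6 and 27.7 FPKM in WT and 15.7 and 12.2 FPKM in Calu-KO (log2 change -0.92 ± 0.15, adjusted p = 0.0538). Not all targets lay low. Atf5, a bZIP factor that is controlled in translation as ATF4 is, was at 160.2 and 159.7 FPKM in WT and 183 and 168 FPKM in Calu-KO (log2 change 0.13 ± 0.11), and the glycine transporter gene Slc6a9 had a log2 change of 0.39 ± 0.13.

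Of 11 tested genes of sestrin signalling and amino acid sensing by mTORC1, 1 was called, as lower (1.83% of all genes). Rragd, a GTPase that helps bring mTORC1 to the lysosome, fell from 4.39 and 4.15 FPKM to 1.19 and 1.63 FPKM (log2 change -1.14 ± 0.16, adjusted p = 0.0412). Castor1, an arginine sensor, stood at 9.20 and 9.94 FPKM in WT and 5.64 and 5.96 FPKM in Calu-KO (log2 change -0.64 ± 0.11, adjusted p = 0.0650). Mtor and Rptor, the core of the complex, had log2 changes of 0.16 ± 0.14 and 0.13 ± 0.18. Of the 5 called genes of these lists, Vldlr passed with any 1 library left out. The others did not pass without WT replicate 1 or without WT replicate 2, with adjusted p-values of 0.0930 and 0.112 for Ppp1r15a, 0.214 and 0.200 for Ero1l, 0.549 and 0.487 for Sqstm1, and 0.237 and 0.200 for Rragd. With no filter on low values none of the 5 passed. Sqstm1 passed in 4 of 11 alternatives, and its adjusted p was 0.0508 with a pseudocount of 0.1 and 0.0646 after rescaling to total reads.

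**Figure D4:**
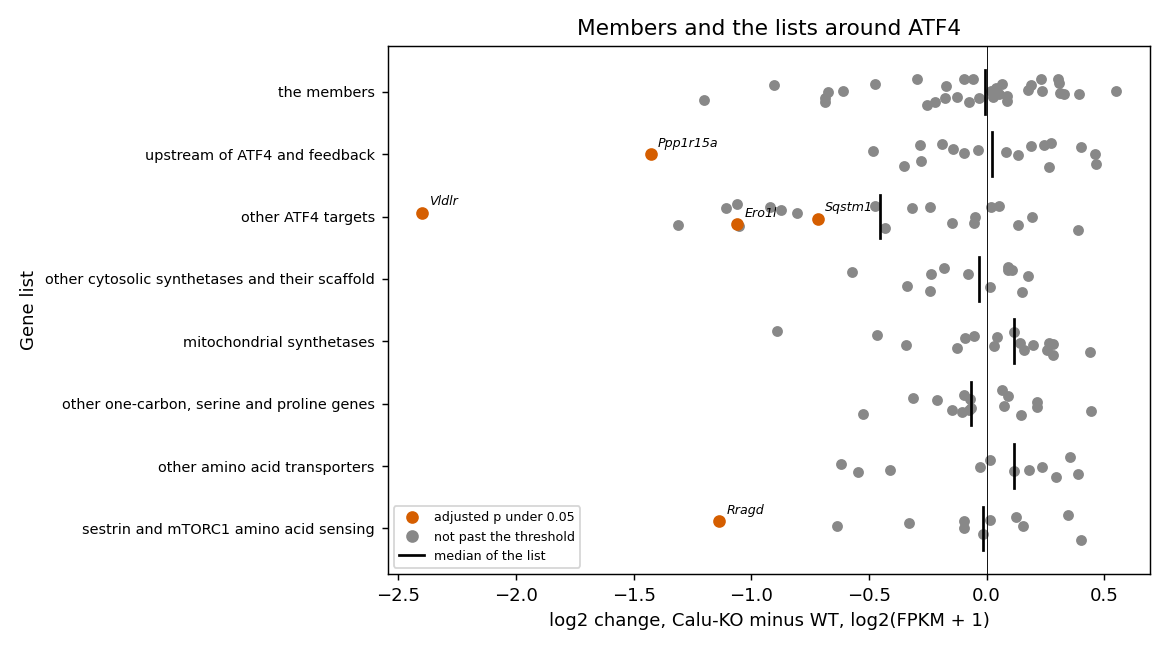
Log2 change (Calu-KO minus WT, on the log2(FPKM + 1) scale) of the 34 tested members and of the tested genes of 7 lists around ATF4, with 1 point per gene and a black line at each list's median. The 5 orange points are the called genes, all of them lower, and the median of the other ATF4 targets, -0.45, is the lowest of the 8. The lists were chosen with earlier results of these data known.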

How the data were processed

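The 4 libraries of mouse cells were grouped by the sample descriptions. The authors deposited 1 table of FPKM values and gene lengths. Per the labels' protocols, paired-end NovaSeq reads were aligned with HISAT2 2.0.5, and per the submitters' processing notes the build was mm10. The sources used here do not give the counter, annotation, strand setting or program behind the FPKM. FPKM times gene length was a whole multiple of 1 step per library for 100% of values (tolerance 0.001 reads), which gave the recovered reads. The library sizes that the steps imply differ from the read totals. For Calu-KO replicate 2 the implied size is below the total, and for each other library it is above. A single read per kb of gene equalled 0.0591 to 0.0684 FPKM, depending on the library.

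Genes whose mean reached 1 FPKM were compared on the log2(FPKM + 1) scale, which shrinks differences of weakly expressed genes, with limma 3.58.1 in R 4.3.3 (eBayes with an intensity trend, two-sided, Benjamini-Hochberg over 11885 genes, threshold 0.05). Intervals are limma's 95% intervals per gene, unadjusted. With 2 libraries per group, the smallest p of an exact two-sided permutation test is 0.333. In simulated data with an assumed spread, the fit called few of the genes changed by 1 log2 unit. A missing call alone therefore does not exclude a change of that size. The members and lists were chosen with earlier results of these data known. Values are given in every library for members with groups apart and a log2 change of at least 0.5 and for the most abundant of each role, and up to 4 called genes are named per list, besides Calu, Atf4, the eIF2 kinases, Ddit3, Trib3 and Ppp1r15a. Other values were added for description. Removal of trends on GC content and length, and limma's voom on recovered reads, were chosen after seeing the data. No set test was run. Results for some genes are not reported here.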

Additional observations from a re-analysis of the deposited data

How the results depend on the processing

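The 34 members were refitted under 11 alternatives, with 374 values in all. Of these, 324 kept their sign and their side of the threshold, 28 kept their sign and passed the threshold where they had not, and 22 changed sign, of which 1 (Lars without Calu-KO replicate 2) also passed. No member was called with a pseudocount of 0.1, no filter, rescaling to total reads, no intensity trend, or GC and length trends removed. Without 1 library each, members called higher ranged from 0 to 11 and lower from 0 to 10, and their median from -0.11 to 0.031. The median was -0.11 after rescaling to total reads, a setting that moved the median of all genes from 0.01 to -0.09. Over all genes, leaving out 1 library gave 8 to 2926 higher and 34 to 2805 lower. No filter gave 0 higher and 0 lower by limma (1712 and 2174 at an unadjusted p under 0.05), rescaling 45 higher, voom 361 higher and 469 lower, and removal of trends 212 higher. The fall of Calu (log2 change -3.70) did not pass with no filter (limma, adjusted p = 0.0797).

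After rescaling, log2 changes were -0.081 for Mthfd2, -0.014 for Slc7a3, -0.051 for Sesn2, -0.019 for Yars, -0.087 for Tars, -0.068 for Lars and -0.043 for Mars. With trends removed they were 0.16 for Phgdh, -0.16 for Slc7a11, 0.0046 for Slc1a5, -0.013 for Eprs, -0.095 for Tars and -0.0099 for Lars. Over the fits without 1 library each, log2 changes ran from -0.20 to 0.079 for Phgdh, -0.027 to 0.38 for Slc7a11, -0.11 to 0.48 for Slc7a5, -0.037 to 0.15 for Sesn2, -0.27 to 0.073 for Aars, -0.029 to 0.63 for Eprs, -0.16 to 0.0075 for Iars, -0.26 to 0.33 for Lars and -0.13 to 0.26 for Mars. The cause was not tested.

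Replicate numbers are shared between the groups, but nothing in the labels ties them, and the deviations of same-numbered libraries did not correlate (Pearson's r 0.0153 across genes). With the replicate block 181 genes were higher and 1 member, Ddit4, was lower. The alternatives with edgeR and DESeq2 were not run, since the deposited unit is FPKM.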
